A study of Mus musculus with 6 samples.

Results

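The genes described here encode secreted cytokines and stress hormones: the colony-stimulating factors Csf1, Csf2 and Csf3, the cytokine Il34, the IL-6 family ligands Il6, Il11 and Lif, and the stress hormones Gdf15 and Fgf21. They were chosen by symbol, and all 9 were found among 19590 named genes. The 6 RNA-seq libraries come from cultured Lewis lung carcinoma (LLC) cells, a line from a mouse lung tumour that can be transplanted. In 3 libraries the cells carried a lentiviral shRNA with a scrambled sequence and wildtype Urod, and in 3 they carried an shRNA against Urod, the gene of the heme synthesis enzyme uroporphyrinogen decarboxylase. Both groups received 2 ug/mL doxycycline for 4 days, the agent that turns the hairpin on. No group without doxycycline or without a hairpin entered the comparison, so the effect of losing Urod and other differences between the 2 cell populations cannot be told apart. Whether replicates were grown as separate cultures is not in the labels, and each p-value reflects only library-to-library spread, possibly technical.

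Values are TPM, transcript abundance per transcript length, scaled to 1000000 per library. Urod checked the labels: it stood at 95.2, 89.9 and 92.1 TPM in scrambled and at 5.71, 5.21 and 5.35 TPM in Urod shRNA libraries. The TPM values of every gene proved to be whole multiples of a step, which gave back whole read numbers, 38.4 to 43.3 M reads (M, 1000000 reads) per scrambled library and 44.1 to 50.8 M per Urod shRNA library. Libraries correlated across genes with r of at least 0.998 within groups and 0.984 to 0.985 between groups. Of the cell type markers, Krt8, a keratin of simple epithelia, rose from 315 ± 13.5 to 459 ± 12.7 TPM (SD, n = 3 each; limma, adjusted p = 9.55e-06). Epcam, an adhesion gene, fell from 1.96 ± 0.195 to 0.943 ± 0.116 TPM (SD, n = 3 each; limma, adjusted p = 0.00039). Other epithelial genes, Krt18, Krt19 and Cdh1 (0.256, 0.152 and 0.843 TPM in scrambled libraries), and the lung markers Sftpc, Sftpb and Scgb1a1 lay under 1 TPM in both group means. The part of these markers in the results was not tested. In bulk RNA, fewer cells of a type and less RNA per cell cannot be told apart.

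CSF-1 and IL-34 are unrelated in sequence but bind the same receptor, CSF1R, which macrophages need to survive and mature. CSF-2 (GM-CSF) and CSF-3 (G-CSF) drive granulocyte and macrophage production. IL-6, IL-11 and LIF each bind a receptor of their own and then share gp130, the product of Il6st, which signals through JAK kinases to STAT3. GDF15 acts on the hindbrain receptor GFRAL and lowers appetite, and FGF21 acts on FGF receptors together with beta-klotho; both genes are induced by ATF4 when the integrated stress response is active. Tumours are known to secrete many of these proteins, and IL-6, LIF and GDF15 have been tied to wasting of the host.

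Promoter sequences are shown for 4 members, Fgf21, Csf1 and Il6, which fell, and Gdf15, which did not pass the test. Each line gives the 250 bases before the start site, 5′ to 3′ on the gene's strand, from RefSeq on GRCm38.p6. Capitals mark matches, on either strand, to TGATGNAAT (the composite element bound by C/EBP and ATF4), kappaB (GGG, any pair of bases, then TTTCC; bound by NF-kB), TGANTCA (AP-1) or TTCNNNGAA (STAT).
Fgf21, chr7:45615491-45615740, minus strand: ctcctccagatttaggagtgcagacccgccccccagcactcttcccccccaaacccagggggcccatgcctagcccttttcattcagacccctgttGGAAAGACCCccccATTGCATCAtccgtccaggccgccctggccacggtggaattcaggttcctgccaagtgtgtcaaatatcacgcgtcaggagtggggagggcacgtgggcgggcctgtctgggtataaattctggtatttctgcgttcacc
Gdf15, chr8:70632457-70632706, minus strand: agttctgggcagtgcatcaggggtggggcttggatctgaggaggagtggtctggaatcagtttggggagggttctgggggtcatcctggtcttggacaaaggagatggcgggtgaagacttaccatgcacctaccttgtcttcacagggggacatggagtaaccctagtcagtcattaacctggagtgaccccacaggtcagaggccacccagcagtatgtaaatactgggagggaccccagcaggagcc
Csf1, chr3:107760470-107760719, minus strand: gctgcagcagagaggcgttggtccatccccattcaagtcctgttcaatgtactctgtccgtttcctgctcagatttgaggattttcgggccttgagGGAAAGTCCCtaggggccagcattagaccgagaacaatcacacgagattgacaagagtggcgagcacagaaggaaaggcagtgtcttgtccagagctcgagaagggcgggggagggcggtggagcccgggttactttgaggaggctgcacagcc
Il6, chr5:30012864-30013113, plus strand: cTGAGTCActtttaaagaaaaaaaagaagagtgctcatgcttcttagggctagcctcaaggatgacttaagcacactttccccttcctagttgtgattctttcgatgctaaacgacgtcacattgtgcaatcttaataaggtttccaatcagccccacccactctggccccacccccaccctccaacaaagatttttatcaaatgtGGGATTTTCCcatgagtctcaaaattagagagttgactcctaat

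The Fgf21 promoter held the C/EBP-ATF element at 140 to 132 bases before the start, which 0.816% of 32851 promoter windows of the same length hold, and a kappaB match at 154 to 145 bases that does not overlap it. Csf1 held a kappaB match at 154 to 145 bases, and Il6 held one at 44 to 35 bases and an AP-1 match at 249 to 243 bases. A kappaB match was present in 1.41% of all windows and an AP-1 match in 6.75%. Of the members not shown, Lif held an AP-1 match at 228 to 222 bases and Il11 one at 98 to 92 bases before its start at 4778141 on chromosome 7. The STAT letters, present in 7.02% of windows, matched in no member. The table held 7 of the 9 members, and the second windows of Gdf15 and Il11 and the window of Csf2 had no match. A match describes the letters in the window and nothing about binding.

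Fgf21, Csf1, Il6 and Lif fell in the cells with the Urod hairpin, Il11 rose, and Gdf15 and Il34 did not pass the test. The test was limma on log2(TPM + 1), run and adjusted over the 11980 genes whose mean reached 1 TPM, and 7 members were among these. Of the 7, 4 fell and 1 rose at an adjusted p under 0.05. Over all tested genes 74.7% were called, 36.2% downward and 38.5% upward, so the share of members called is near the background and is not a result about them. The median change of the 7 was -0.57 on the log2 scale against 0.02 over all tested genes. Csf2 and Csf3 lay under 1 TPM and were not tested by limma.

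**Figure D1:**
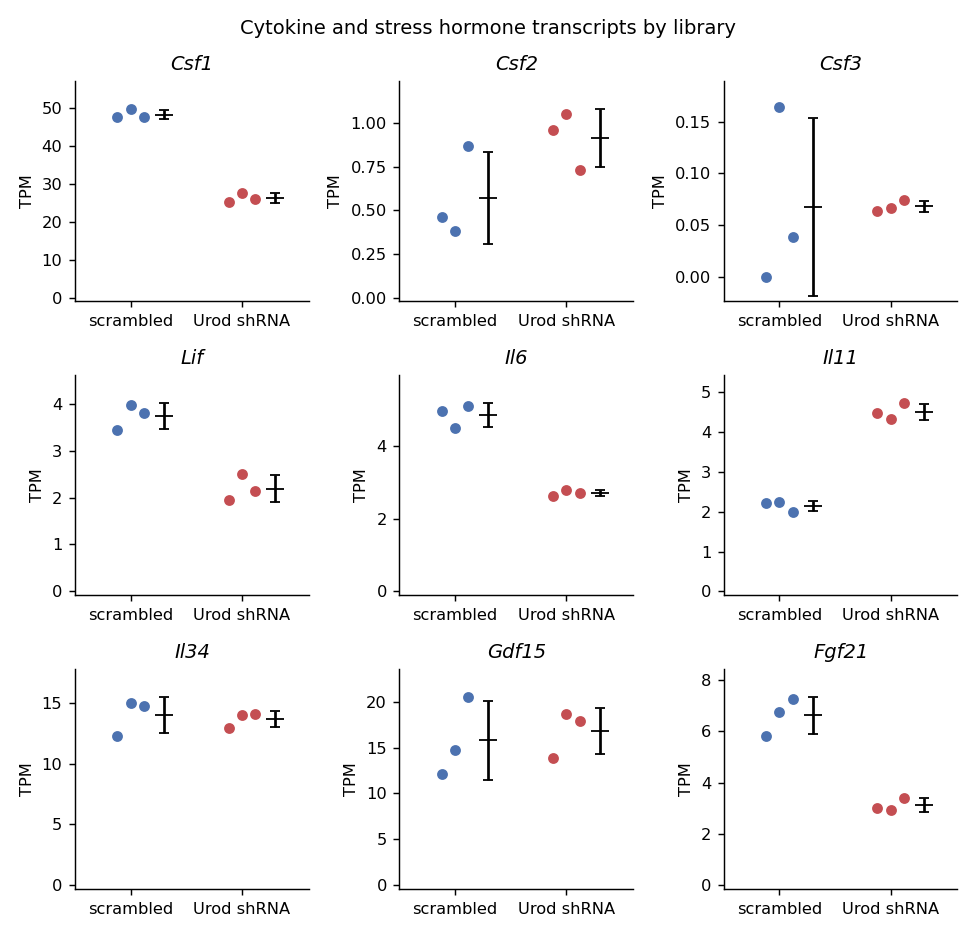
TPM of each member in the 3 scrambled (blue) and 3 Urod shRNA (red) libraries, with the group mean and SD beside the points; each panel has its own linear axis. Csf1, Lif, Il6 and Fgf21 lie lower and Il11 higher in every Urod shRNA library, while the groups overlap for Csf2, Csf3, Il34 and Gdf15.

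Csf1, the growth factor of macrophages, had the highest level of the 9 members in both groups. It stood at 47.5, 49.6 and 47.4 TPM in scrambled and at 25.2, 27.6 and 25.9 TPM in Urod shRNA libraries. All 3 Urod shRNA values lay well under all scrambled values, and groups stood apart in this way for 37.5% of tested genes, with 39.8% apart in the upward direction and 77.3% in either. The mean fell to 54.5% of its scrambled level, from 48.2 ± 1.23 to 26.2 ± 1.25 TPM (SD over n = 3; log2 difference -0.85, SE 0.04, limma, adjusted p = 1.94e-06). It rested on 2266 to 3968 reads per library. Csf1 (ENSMUSG00000014599.10) is a protein-coding gene on chromosome 3 of GRCm38, from 107741048 to 107760469 on the minus strand.

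Il34, the other ligand of CSF1R, had no detectable change. It stood at 12.3, 15.0 and 14.7 TPM in scrambled and at 12.9, 14.0 and 14.1 TPM in Urod shRNA libraries. The ranges overlap, and the 95% interval of the log2 change ran from -0.21 to 0.16 (limma, adjusted p = 0.777). Il34 lies on chromosome 8 from 110741829 to 110805924.

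The balance between the 2 CSF1R ligands was also compared within each library, since a plain ratio of TPM does not depend on library scaling. Csf1 stood at 3.87, 3.31 and 3.22 times the TPM of Il34 in scrambled libraries and at 1.95, 1.97 and 1.83 times in Urod shRNA libraries. The log2 ratio with 1 TPM added to each gene went from 1.72 ± 0.132 to 0.89 ± 0.0534 (SD, n = 3 each), and the groups did not overlap (two-sided exact permutation test, p = 0.10, the smallest that 3 against 3 allow). Csf1 made up 50.4% ± 3.48 of the summed TPM of the 9 members in scrambled and 37.4% ± 1.28 in Urod shRNA libraries (SD, n = 3 each), and the sum itself was 96.0 ± 6.58 and 70.2 ± 4.57 TPM.

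The receptor of both ligands was barely present. Csf1r lay under the level tested, with means of 0.731 ± 0.0346 TPM (scrambled) and 0.588 ± 0.123 TPM (Urod shRNA; SD, n = 3 each). Csf2ra, Csf2rb and Csf3r, which bind GM-CSF and G-CSF, and the related gene Csf2rb2 had group means under 0.3 TPM. Sdc1, a syndecan that can bind IL-34 on the cell surface, was the 1 tested gene of the 7 on the receptor list and fell from 448 ± 18.9 to 284 ± 6.74 TPM (SD, n = 3 each; limma, adjusted p = 3.4e-06). Ptprz1, a phosphatase that is another receptor of IL-34, lay under the level tested with 4, 3 and 1 reads in scrambled and 26, 35 and 35 reads in Urod shRNA libraries, higher in all of the latter. Csf2rb2 likewise stood higher without overlap, at 0.118 ± 0.0217 and 0.271 ± 0.0325 TPM (SD, n = 3 each). With no filter, with a mean of at least 0.1 TPM or by limma-voom on recovered reads, 2 genes of this list were called upward. Of all tested genes, 74.7% were called in the main fit, 38.5% upward. Ptprc, the pan-leukocyte marker, had group means of 0.0590 TPM (scrambled) and 0.0410 TPM (Urod shRNA). The summed level of the 14 leukocyte and endothelial markers in the table ran from 116 to 118 TPM over the scrambled libraries and from 63.9 to 66.8 TPM over the others, with none of them at 0 in all 6 libraries. Nearly all of it came from Cd68 (53.2 and 30.8 TPM) and the lysozyme gene Lyz2 (49.2 and 11.4 TPM), which fell, and Cd14 (8.37 and 12.9 TPM) and Pecam1 (4.74 and 7.37 TPM), which rose. Under the level tested, Cdh5 (0.297 and 1.435 TPM), Kdr (0.0303 and 0.193 TPM) and Itgam stood higher without overlap, and Emr1 and Nkg7 lower. Upward calls on this list went from 2 to 4 with a mean of at least 0.1 TPM. They reached 5 with no filter or by limma-voom, where 75% of all genes were called. The part of these markers in the fall of Csf1 was not tested.

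Csf2 and Csf3 were close to the limit of detection. Csf2, the gene of GM-CSF, stood at 0.460, 0.380 and 0.870 TPM in scrambled and at 0.964, 1.05 and 0.734 TPM in Urod shRNA libraries. These values correspond to 8, 7 and 17 reads and to 23, 24 and 15 reads, and scrambled replicate 3 overlapped the Urod shRNA range. Group means were 0.570 ± 0.263 and 0.917 ± 0.164 TPM (SD, n = 3 each; two-sided exact permutation test, p = 0.20). On the recovered reads limma-voom gave a log2 change of 0.76 (SE 0.32, unadjusted p = 0.0398, adjusted p = 0.0528 over 13536 genes, of which 75% were called), and the authors' deposited table gives 0.68 with an FDR of 0.0598. An antisense gene, Gm12223, shares 96 of the 800 exon bases of Csf2 in GENCODE M21, and the sources used here do not say whether reads were counted by strand. The antisense genes Gm15894 and Gm15895 likewise share 22 and 75 of the 1959 exon bases of Il34.

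Csf3, the gene of G-CSF, rested on 0, 4 and 1 reads in scrambled and on 2, 2 and 2 reads in Urod shRNA libraries. The values were 0, 0.165 and 0.0388 TPM against 0.0635, 0.0664 and 0.0741 TPM. A count of 0 in scrambled replicate 1 allows a level of up to 0.131 TPM (3 reads, for counting error only), so no difference was detectable at this depth. Csf2 and Csf3 lie on chromosome 11, Csf2 from 54247271 to 54249667 and Csf3 from 98701263 to 98703629.

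Of the 3 IL-6 family ligands among the members, Il6 and Lif fell and Il11 rose. Il6, an inflammatory cytokine, stood at 4.97, 4.49 and 5.11 TPM in scrambled and at 2.63, 2.79 and 2.70 TPM in Urod shRNA libraries. The groups stood apart, and the mean fell from 4.86 ± 0.323 to 2.71 ± 0.0814 TPM (SD over n = 3; log2 difference -0.66, SE 0.07, limma, adjusted p = 5.8e-05). Behind these values were 87 to 105 and 58 to 67 reads. Il6 lies on chromosome 5 from 30013114 to 30019981.

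Lif, a cytokine named for its effect on leukaemia cells and a factor that keeps mouse embryonic stem cells undifferentiated, stood at 3.45, 3.98 and 3.80 TPM in scrambled and at 1.95, 2.50 and 2.13 TPM in Urod shRNA libraries. Its groups did not overlap. The mean fell from 3.74 ± 0.273 to 2.19 ± 0.285 TPM (SD over n = 3; log2 difference -0.57, SE 0.09, limma, adjusted p = 0.000565), on 183 to 312 reads per library. Lif lies on chromosome 11 from 4257557 to 4272514.

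Il11, a gp130 cytokine known for its roles in fibrosis and bone, was the 1 member that rose. It stood at 2.22, 2.24 and 2.00 TPM in scrambled and at 4.49, 4.33 and 4.73 TPM in Urod shRNA libraries. Every Urod shRNA value was above every scrambled value, and the mean rose 2.10-fold, from 2.15 ± 0.131 to 4.52 ± 0.203 TPM (SD over n = 3; log2 difference 0.81, SE 0.07, limma, adjusted p = 1.94e-05). Read numbers went from 75 to 80 per scrambled library to 188 to 208 per Urod shRNA library. In the scrambled libraries Il11 ranked under Il6 and Lif, and in the Urod shRNA libraries above both, with no overlap of ranges in either group. Il11 lies on chromosome 7 from 4772373 to 4782859.

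**Figure D2:**
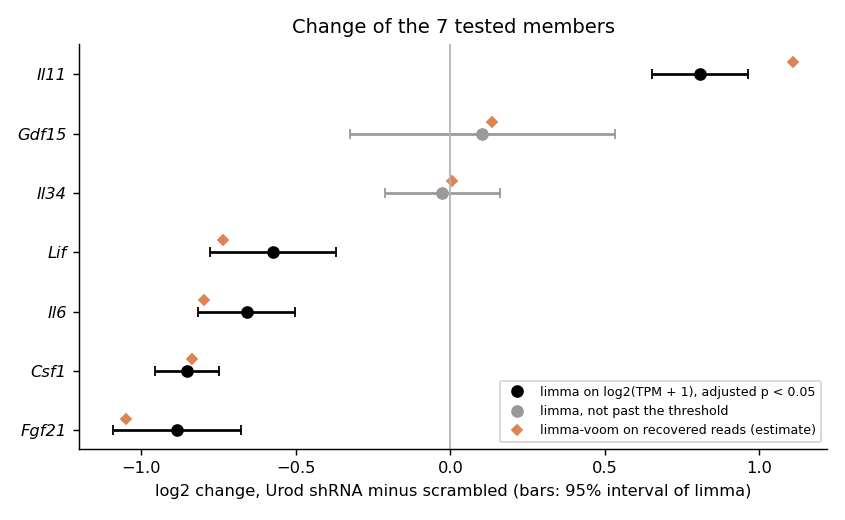
Log2 change (Urod shRNA minus scrambled) of the 7 tested members; circles with bars give limma's estimate on log2(TPM + 1) and its 95% interval, grey where the test was not passed, and diamonds the estimate on recovered reads. Fgf21, Csf1, Il6 and Lif lie under 0 and Il11 above it by both, and the intervals of Gdf15 and Il34 include 0.

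The receptors and transducers of this family changed in both directions. Of the 10 genes listed, 8 were tested, with 5 falls, 3 rises and a median of -0.46 on the log2 scale. Over all tested genes 74.7% were called. Il6st, the shared receptor chain gp130, fell from 47.4 ± 4.36 to 28.1 ± 2.92 TPM (SD, n = 3 each; limma, adjusted p = 0.000163). Stat3, the transcription factor at the end of the pathway, fell from 65.9 ± 1.96 to 45.5 ± 2.52 TPM (SD, n = 3 each), and Jak2 fell by 0.40 on the log2 scale (limma, adjusted p = 7.83e-05). Jak1, the kinase that gp130 mainly relies on, rose from 131 ± 2.50 to 174 ± 4.32 TPM (SD, n = 3 each; limma, adjusted p = 1.36e-05). Among the ligand-binding chains, Il6ra rose from 7.84 to 9.77 TPM and Il11ra1 fell from 2.32 to 1.33 TPM, each opposite in sign to its own ligand. The call of Il6ra (limma, adjusted p = 0.0318) was lost without scrambled replicate 1 (0.0614) or Urod shRNA replicate 2 (0.0953) or 3 (0.0954). Lifr, at 0.231 and 0.119 TPM, and Osmr, at 0.00387 and 0.0162 TPM, were not tested. Lifr stood lower in every Urod shRNA library, the same direction as its ligand Lif.

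Feedback and target genes of STAT3 were next. Of 12 listed and tested, 9 fell and 0 rose (median -0.54 on the log2 scale), and the 3 that did not pass were Junb (0.31), Cebpd (0.13) and Ier3 (0.03). Junb passed upward without scrambled replicate 3 (log2 change 0.52, limma, adjusted p = 0.0381) and with the replicate number as a block (0.0269), which makes the count 1 upward. Socs3, the inhibitor that STAT3 induces against its own receptor, fell from 24.1 ± 0.943 to 11.0 ± 0.125 TPM (SD over n = 3; log2 difference -1.07, SE 0.04, limma, adjusted p = 7.16e-07). The acute-phase gene Saa3 fell from 11.9 ± 1.92 to 2.79 ± 0.643 TPM (SD over n = 3; log2 difference -1.78, limma, adjusted p = 2.42e-05). The kinase gene Pim1 fell by 0.87 and the repressor gene Bcl6 by 0.84 on the log2 scale. Of all tested genes 74.7% were called, with 36.2% of all tested genes downward and 38.5% upward. Only the total called, both directions together, is near that background, as all 9 calls were downward. The listed genes also answer to other pathways, and the list was not tested as a set.

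**Figure D3:**
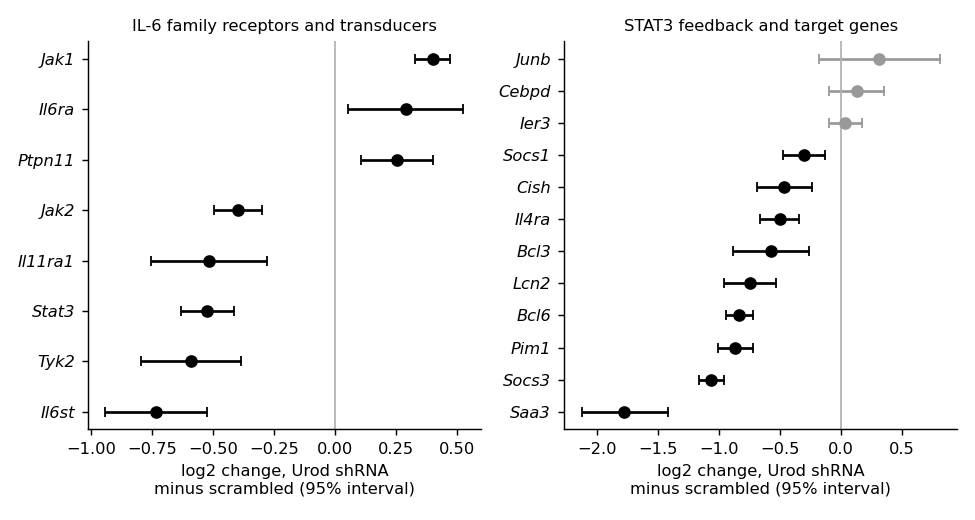
Log2 change (Urod shRNA minus scrambled) with its 95% interval from limma for the tested receptors and transducers of the IL-6 family (left) and for STAT3 feedback and target genes (right); grey points did not pass the test. On the left 5 genes fell and 3 rose, and on the right 9 fell, Saa3 the most at -1.78.

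Further ligands of the family were split. Of 8 listed, 5 were tested, of which 3 rose and 2 fell, beside 74.7% called over all tested genes. Clcf1, a ligand of the ciliary neurotrophic factor receptor, rose from 12.1 ± 2.43 to 20.6 ± 2.73 TPM (SD, n = 3 each; limma, adjusted p = 0.0029). Cntf fell from 11.8 to 7.55 TPM, Ebi3, a subunit of IL-27, rose from 1.03 to 2.24 TPM, and Ctf1, which encodes cardiotrophin, rose by 0.18 on the log2 scale (limma, adjusted p = 0.0436). The call of Ctf1 was lost without scrambled replicate 3 or without any 1 of the Urod shRNA libraries (adjusted p from 0.0729 to 0.117), with median-ratio scaling (0.0578) and with rescaling without the 20 most abundant genes (0.078).

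The 2 stress hormones differed in their response. Fgf21 stood at 5.83, 6.76 and 7.26 TPM in scrambled and at 3.02, 2.92 and 3.41 TPM in Urod shRNA libraries. The groups stood clearly apart, and the mean fell to 47.1% of its scrambled level, from 6.61 ± 0.724 to 3.12 ± 0.264 TPM (SD over n = 3; log2 difference -0.88, SE 0.09, limma, adjusted p = 5.44e-05). It rested on 93 to 130 reads per scrambled and 61 to 66 per Urod shRNA library. Fgf21 lies on chromosome 7 from 45613886 to 45615490.

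Gdf15 stood at 12.1, 14.8 and 20.5 TPM in scrambled and at 13.9, 18.6 and 17.9 TPM in Urod shRNA libraries. The scrambled range encloses the Urod shRNA range. The means were 15.8 ± 4.31 and 16.8 ± 2.54 TPM (SD over n = 3; log2 difference 0.10, SE 0.18, limma, adjusted p = 0.627), and leaving out 1 library moved the change between -0.06 (without scrambled replicate 1) and 0.30 (without scrambled replicate 3). The spread exceeded counting error: the coefficient of variation was 27.3% in scrambled libraries, where 221 to 421 reads would give 5.69% from counting alone, and 15.1% against 5.05% in Urod shRNA libraries. Gdf15 lies on chromosome 8 from 70629393 to 70632456.

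Within each library Gdf15 stood at 2.08, 2.18 and 2.83 times the TPM of Fgf21 in scrambled and at 4.61, 6.39 and 5.23 times in Urod shRNA libraries. The log2 ratio with 1 TPM added rose from 1.11 ± 0.235 to 2.10 ± 0.217 (SD, n = 3 each) without overlap (two-sided exact permutation test, p = 0.10, again the smallest possible).

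**Figure D4:**
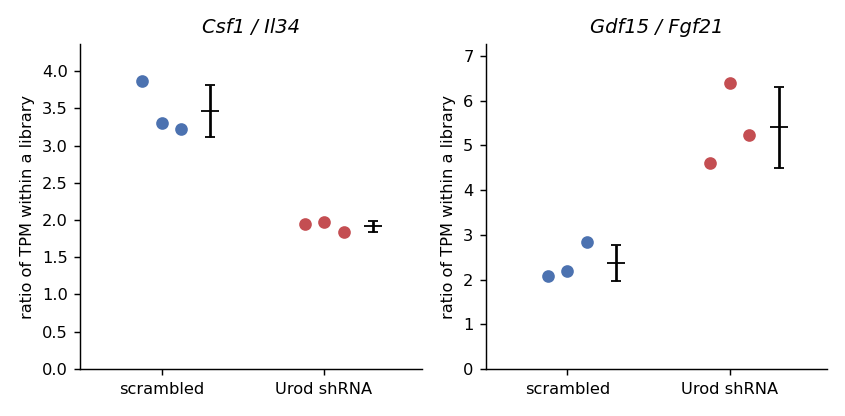
Ratio of TPM within each library for Csf1 over Il34 (left) and Gdf15 over Fgf21 (right), with the group mean and SD beside the points; axes start at 0. The first ratio is 3.22 to 3.87 in scrambled and 1.83 to 1.97 in Urod shRNA libraries, the second 2.08 to 2.83 and 4.61 to 6.39.

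**Figure D5:**
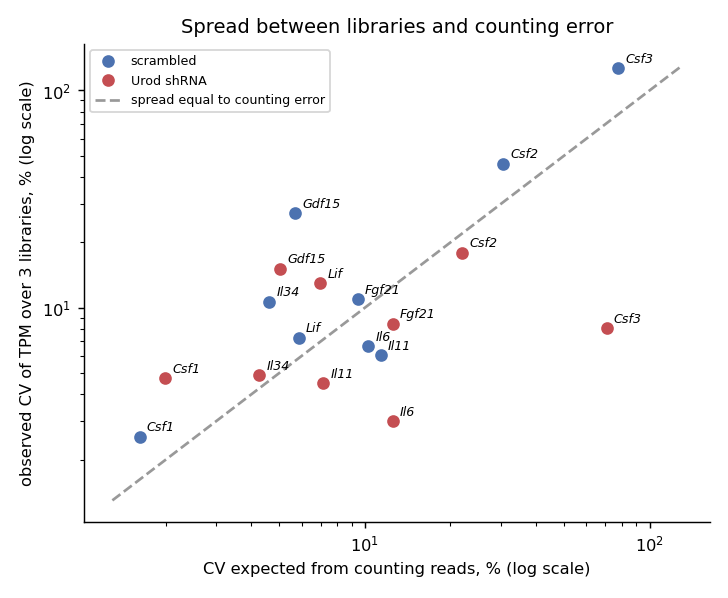
Observed coefficient of variation of TPM over the 3 libraries of a group (vertical, log scale) against that expected from counting reads alone (horizontal, log scale) for each member and group. Gdf15 lies farthest above the dashed line of equality in both groups. Il6 and Il11 lie under it in both groups, and Csf2, Csf3 and Fgf21 in the Urod shRNA group only.

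Genes known to regulate the stress hormones moved both ways. Of 15 listed, 13 were tested, of which 7 rose and 3 fell, beside 38.5% upward and 36.2% downward over all tested genes. Atf4 rose from 1035 to 1369 TPM, its relative Atf5 from 30.3 ± 1.03 to 65.8 ± 1.90 TPM (SD, n = 3 each; limma, adjusted p = 3.78e-07), and Trib3, a target and inhibitor of ATF4, from 252 ± 7.39 to 336 ± 6.76 TPM (SD, n = 3 each). Ddit3, the gene of the pro-apoptotic factor CHOP, fell from 997 ± 7.73 to 362 ± 6.01 TPM (SD over n = 3; log2 difference -1.46, limma, adjusted p = 3.27e-08), as did Xbp1, a factor of the unfolded protein response, from 207 to 121 TPM. Trp53, whose product p53 can induce Gdf15, rose from 60.1 to 95.2 TPM. Of the 12 receptors and proteases of GDF15 and FGF21 listed, 4 were tested, of which 1 rose, 1 fell and 2 did not pass. Fgfr3, a gene of the FGF receptor family, fell from 1.51 ± 0.0825 to 0.568 ± 0.0379 TPM (SD, n = 3 each; limma, adjusted p = 9.75e-05). Gfral, Ret and Klb lay under 0.11 TPM in both group means, and Fgfr1, at 221 ± 12.9 and 221 ± 10.2 TPM, did not pass (SD, n = 3 each; limma, adjusted p = 0.979). Furin, a protease of the proprotein convertase family, rose from 47.5 ± 5.78 to 67.6 ± 6.44 TPM (SD, n = 3 each; limma, adjusted p = 0.00232).

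NF-kB and AP-1 factors, which act on many cytokine genes, showed 6 rises and 6 falls among 17 tested, with a median of 0.00 on the log2 scale. Those that fell most were feedback and immediate-early genes: Nfkbia, the inhibitor that NF-kB itself induces, went from 127 ± 0.533 to 52.8 ± 1.36 TPM (SD, n = 3 each; limma, adjusted p = 8.27e-08), Nfkbiz, a cofactor needed for Il6 induction in mouse macrophages, from 35.8 ± 0.615 to 13.8 ± 0.697 TPM (SD, n = 3 each), and Fos fell by 0.92 on the log2 scale. The subunit genes Rela and Nfkb1 rose by 0.28 and 0.26 on the log2 scale, and Fosl1 by 0.56. For comparison, 74.7% of all tested genes were called.

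Cytokine messages are short-lived, and RNA-binding proteins set their decay. Of 13 such genes tested, 5 fell and 4 rose, beside 74.7% called over all tested genes. Zfp36l1, which speeds the decay of AU-rich messages, fell from 148 ± 3.14 to 72.8 ± 0.568 TPM (SD, n = 3 each; limma, adjusted p = 1.54e-07), Zfp36 by 0.52 and Zc3h12a, the nuclease Regnase-1 that cuts Il6 RNA, by 0.72 on the log2 scale. Arid5a, which stabilises Il6 RNA in mouse macrophages, rose from 10.6 ± 0.756 to 21.7 ± 1.09 TPM (SD, n = 3 each; limma, adjusted p = 5.91e-06). Hnrnpd rose by 0.51, Elavl1 by 0.31 and Khsrp by 0.24 on the log2 scale (Khsrp, limma, adjusted p = 0.00862). Zc3h12c and Rc3h1 fell by 0.65 and 0.18. The effect of these changes together on the decay of member messages was not tested.

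For 6 of the tested members the 3 genes with the most similar pattern over the 6 libraries were found among the 8549 tested genes whose mean reached 10 TPM. Likeness was the root mean square difference of log2(TPM + 1) after centring on the scrambled mean. The added 1 TPM shrinks the change of a member of few TPM more than that of its neighbours, so the neighbours of Il11, Il6, Lif and Fgf21 depend on it and do not share the member's fold change: Il11 rose 2.10-fold, and its closest gene, Uros, went from 13.5 to 24.5 TPM. Csf1 was closest to Gstm1, a glutathione transferase gene, Prc1, a spindle midzone gene, and Aplp2, at 0.018 to 0.020. Il11 was closest to Uros, which encodes the heme synthesis enzyme before Urod, at 0.031, and then to Smim3 and Polr1e. Il6 was closest to Rap2a at 0.036, Lif to Dennd5a at 0.028 and Fgf21 to Scarf2 at 0.051. Il34 was closest to Mapk7 at 0.009, and the elongation factor gene Eef2 followed with Mical1.

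The authors' deposited table of the same comparison, in which 56.1% of 19617 rows have an FDR under 0.05, gives log2 fold changes of -0.87 for Csf1, -0.84 for Il6, -0.77 for Lif, -1.09 for Fgf21 and 1.08 for Il11, all with an FDR under that threshold. The authors' deposited table gives 0.09 for Gdf15 (FDR 0.65), -0.03 for Il34 (FDR 0.804) and -0.01 for Csf3 (FDR 0.996). It rests on the same 6 libraries. None of the 9 members is on the authors' deposited pathway list of 451 genes.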

How the data were processed

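RNA of 6 libraries (3 scrambled, 3 Urod shRNA, grouped by their titles) was analysed. Per the labels' protocols, polyadenylated RNA was sequenced as stranded 51-bp single-end reads, mapped to mm10 with TopHat guided by an iGenomes annotation, filtered at mapping quality 10, and quantified with Cufflinks and Cuffdiff; the submitters' processing notes give 2.1.1 for Cuffdiff. Discarding ambiguous alignments can lower genes with near-identical copies. The deposited values, called normalized counts, were read as TPM because each column sums to 1000000 and log2 TPM minus log2 reads follows exon length (r = -0.837 across 8530 genes). Per the file headers, the authors' comparison table lists a log2 fold change and a mean log2 CPM for every gene. Its headers also name LR, a score taken here as a likelihood ratio, with a p-value and an FDR deposited beside it; the sources used here do not name its test.

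Rows carrying a date (27 of 19617) were left out. Genes averaging 1 TPM or more were fitted as log2(TPM + 1), a scale on which changes of low genes come out too small. The fit used limma 3.58.1 in R 4.3.3 (two-sided tests with a variance trend, called at a Benjamini-Hochberg adjusted p under 0.05). A check on simulated data changed few genes, all above the level of Fgf21, Il6, Lif and Il11, and does not cover these members. Relative depth was the most frequent ratio between libraries among 3544 rarely detected genes; with it, the smallest whole read numbers were found for each gene (tolerance 0.001), and for 194 genes, none of them members, a common divisor was restored from log2 CPM. Members and lists were chosen with earlier results of these data known. Named list genes are the members of each list with the smallest adjusted p (up to 4), and others were chosen after their values were seen. Figures were drawn with matplotlib 3.10.9. Coordinates are GENCODE M21 on GRCm38. Some genes of these lists are not reported here.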

Additional observations from a re-analysis of the deposited data

How the results depend on the processing

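Under 18 other settings (pseudocounts, filters, scalings, variance models, the replicate number as a block, each library left out, and limma-voom on recovered reads, chosen after seeing the data), each called member kept its direction and its call wherever it was tested. With a mean of at least 10 TPM, 0 members were called upward and 1 downward, since Il11, Lif, Il6 and Fgf21 were then not tested. Leaving out each library gave 1 member upward and 4 downward each time, and 8262 to 9008 genes called. A pseudocount of 10 shrank the low members most, Il11 to 0.26, Lif to -0.17, Il6 to -0.23 and Fgf21 to -0.34, while recovered reads gave 1.11, -0.74, -0.80 and -1.05. Gdf15 and Il34 did not pass under any of them and changed sign under some, between -0.06 and 0.30 and between -0.11 and 0.02. The 2 ratios were compared under 9 settings only (pseudocounts, each library left out and the replicate block). The Csf1 to Il34 log2 ratio fell by 0.67 to 0.87 and the Gdf15 to Fgf21 ratio rose by 0.40 to 1.17 (exact tests, p from 0.10 to 0.25). Rescaling without the 20 most abundant genes gave 4366 genes called upward and 4677 genes called downward, against 4609 and 4336. With the replicate block 9882 genes were called, with 1 member upward and 4 downward; same-numbered libraries correlated in their deviations with r of 0.418, 0.214 and 0.0951, the third pair under 0.1, and scrambled replicate 3 correlated more with Urod shRNA replicate 2 (0.203), so the numbers were not taken as pairs. Pdgfrb lost its call without scrambled replicate 2 (adjusted p = 0.0588 by limma) or 3 (0.055), Ctf1 and Il6ra lost theirs with no filter on low values (0.0792 and 0.067), Ctf1 also with a mean of at least 0.1 TPM (0.0535), median-ratio scaling (0.0578) and rescaling (0.078), and Pcsk7 passed under quantile normalization (0.13, limma, adjusted p = 0.0457). Csf2 and Csf3 were limited by depth.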

Other observations

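Other secreted cytokines and growth factors, chemokines left out, were listed beside the members. Of the 49 found, 26 were tested, and 7 of these rose and 11 fell, beside 38.5% upward and 36.2% downward over all tested genes. Il1rn, the antagonist of the interleukin-1 receptor, rose from a mean of 3.22 TPM to one of 18.6 TPM (log2 difference 2.21, SE 0.05, limma, adjusted p = 6.71e-08), while Il1a and Il1b, which encode the agonists, lay under 1 TPM in both group means. Angptl4, an inhibitor of lipoprotein lipase, rose from 4.92 ± 0.367 to 25.3 ± 0.970 TPM (SD, n = 3 each; limma, adjusted p = 1.46e-07). Pgf, a ligand of the VEGF receptor family, fell from 19.96 ± 0.799 to 5.39 ± 0.0891 TPM (SD, n = 3 each; limma, adjusted p = 1.58e-07), and Vegfc rose from 5.11 to 9.94 TPM, while Vegfa, at 85.3 and 82.1 TPM, did not pass (limma, adjusted p = 0.449). Spp1, which encodes osteopontin, was the most abundant of the list and fell from 6357 ± 170 to 3410 ± 65.5 TPM (SD, n = 3 each). Il15, a growth factor of natural killer and memory T cells, fell from 18.1 to 7.48 TPM, and Flt3l, a growth factor of dendritic cells, from 8.94 to 4.29 TPM.

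Fibroblast markers were low apart from the receptors Pdgfra, which fell from 57.3 to 34.9 TPM, and Pdgfrb, which fell from 17.6 to 14.9 TPM and lost its call without scrambled replicate 2 or 3. Col1a1, a collagen gene of mesenchymal cells, rested on 71, 107 and 140 reads in scrambled and on 19, 12 and 13 reads in Urod shRNA libraries, lower in all of the latter, with means of 1.25 ± 0.340 and 0.143 ± 0.0299 TPM (SD, n = 3 each). Its mean over all libraries lay under the level tested. The list's 2 downward calls became 3 with no filter, with a mean of at least 0.1 TPM or by limma-voom on recovered reads. Of all tested genes, 74.7% were called in the main fit, 36.2% downward, and 75% were called by limma-voom. Dcn, Lum and Col1a2 had group means under 0.3 TPM.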
